A study of Mus musculus with 13 samples.

Results

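The lincRNA regions of mouse chromosome 3 were examined on 1-colour Agilent arrays of embryonic stem cell (ESC) lines before and after deletion of Jmjd2 (Kdm4) histone demethylase genes. Members were all non-control probes whose design name places them on chromosome 3 as a region with a start and an end in mouse assembly mm9 and, for all but 1 region, a strand, F or R. There were 898 such probes in 265 regions, out of 16194 lincRNA probes in 4610 regions on all chromosomes. Chromosome 3 was chosen from the OHT minus control changes of these same arrays, so for that contrast the values below are a description and support nothing further. The 2ac lines cl4, cl5 and cl6 carried floxed Jmjd2a and Jmjd2c with CreERT2, a Cre recombinase activated by the tamoxifen metabolite OHT, at the Rosa26 locus. Floxed Jmjd2b was present in addition in the 2abc lines, which are cl280.4, cl324.9 and cl324.13. Each line was sampled once as an untreated control and once 6 days after 12 days in 500 nM OHT, which gave 4 groups of 3 samples.

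All lines derived from C57Bl/6 mice and grew on gelatin in N2B27 medium without serum, with LIF and inhibitors of MEK (PD0325901) and GSK3. Untreated cultures carried the same floxed alleles and CreERT2 but received no OHT, so exposure to OHT, activation of Cre and loss of the genes cannot be told apart. The lines of a genotype are labelled as independently established. Every p-value measures the variation among lines, 3 for each genotype, pooled over both genotypes. The names cl324.9 and cl324.13 share a number, and a closer relation between these lines was not examined.

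Long intergenic noncoding RNAs (lincRNAs) are transcripts that lie between protein-coding genes, carry no long reading frame and are usually less abundant than mRNAs. Jmjd2 enzymes remove methyl groups from lysines 9 and 36 of histone H3, marks found on silent chromatin and along transcribed gene bodies. LincRNAs can be transcribed from either strand, and the array holds probes for both strands of many regions.

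The targeted genes were lower after OHT where they were floxed. Changes of Kdm4c ran from -3.66 to -2.26 on the log2 scale in the 6 lines, those of Kdm4b from -2.59 to -1.68 in 2abc and from -0.04 to 0.35 in 2ac, where it was not floxed, and those of the brighter Kdm4a probe from -0.89 to -0.53. On each array 50.1 to 63.9% of 55681 probes were well above background and 0 were saturated. All 7 ESC markers were well above background on all 13 arrays, and 2 of them fell over the 6 lines, Zfp42 by 0.50 and Tfcp2l1 by 0.55. Of markers of other cell types, 3 of 6 fibroblast genes and 1 of 4 blood genes were above background on all arrays, and Postn and Hbb-b1 were above it on 0. Neural markers Pax6, Map2 and Tubb3 rose (3 of 4), with the summed level of the list at 1.80 to 2.52 in control and 2.35 to 3.33 after OHT. Of primitive endoderm markers Sox17 and Sparc fell and Gata6 rose, and the list's summed level went from 8.20 to 8.33 in control to 7.66 to 8.15 after OHT. Both sums mainly follow the brightest gene of the list. These were Tubb3 at a mean level of 2.33, against -3.98 for Pax6, and Sparc at 8.07, against -3.16 for Gata6. The summed fibroblast level was 0.53 to 1.37 in control and 0.78 to 2.22 after OHT, with 1 gene, Col1a2, that rose, and the summed blood level was -1.53 to -1.18 and -2.31 to -0.91. The part of these markers in the changes of the lincRNA regions was not tested.

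The regions were 159 to 533972 bp long, with a median of 9626 bp, and had 1 to 10 probes each. Overlapping regions formed 132 separate loci. Strand F was given for 134 regions, strand R for 130, and chr3:34856791-34869544 had no strand in its name. The same coordinates were represented on both strands in 59 cases. Probes to 1 region or 1 locus share a transcript or its neighbourhood and were not treated as replicates.

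Few of these probes gave a measurable signal in ESCs. Only 180 of 898 probes (20.04%), in 107 regions and 73 loci, were well above background on all arrays, and 333 were above it on 0 arrays. The share was 26.3% for lincRNA probes of the other autosomes, 27.5% for those of chromosome 4 and 58.5% for the 1365 gene probes of chromosome 3. The 107 regions with such a probe had a median length of 12626 bp, against 5882 bp for the other 158. Levels are given as log2 signal relative to the 75th percentile of each array, which is 0 on this scale. The 180 measured probes had a median level of -1.56, lincRNA probes of the other autosomes -1.63, and gene probes of chromosome 3 1.12. A level compares 1 probe between samples and not the abundance of different transcripts. The dimmest measured probe, in chr3:45163252-45179177_R, had a mean level of -3.54 and a mean change of -0.27. The brightest probe that missed background on 1 array, in chr3:60292527-60292880_R, had a mean level of -2.61 and a mean change of 1.55.

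The lincRNA probes of chromosome 3 stood closer to their class on the other autosomes than the gene probes of chromosome 3 did. The median OHT minus control change of the 180 probes was 0.27 in cl4, 0.32 in cl5, -0.14 in cl6, 0.09 in cl280.4 (each on the log2 scale), -0.18 in cl324.9 and 0.16 in cl324.13. Lines cl6 and cl324.9 were thus below 0 and the other 4 above it. The lincRNA probes of the other autosomes moved alike, with medians of 0.21, 0.23, -0.17, 0.08, -0.12 and 0.07 in the same order. Chromosome 3 therefore exceeded the other autosomes by 0.06 in cl4, 0.09 in cl5, 0.03 in cl6, 0.02 in cl280.4 and 0.08 in cl324.13, and was lower by 0.06 in cl324.9 (-0.06). For the mean change over the 6 lines the medians were 0.09 and 0.05, a difference of 0.04 with an SD over lines of 0.06. Within 2ac the difference was 0.02 and within 2abc 0.01. Among the 20 chromosomes, 19 autosomes and X, lincRNA probes of chromosome 3 had rank 4 by this median, after those of chromosomes 11, 19 and 10 at 0.11, 0.11 and 0.10.

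**Figure D1:**
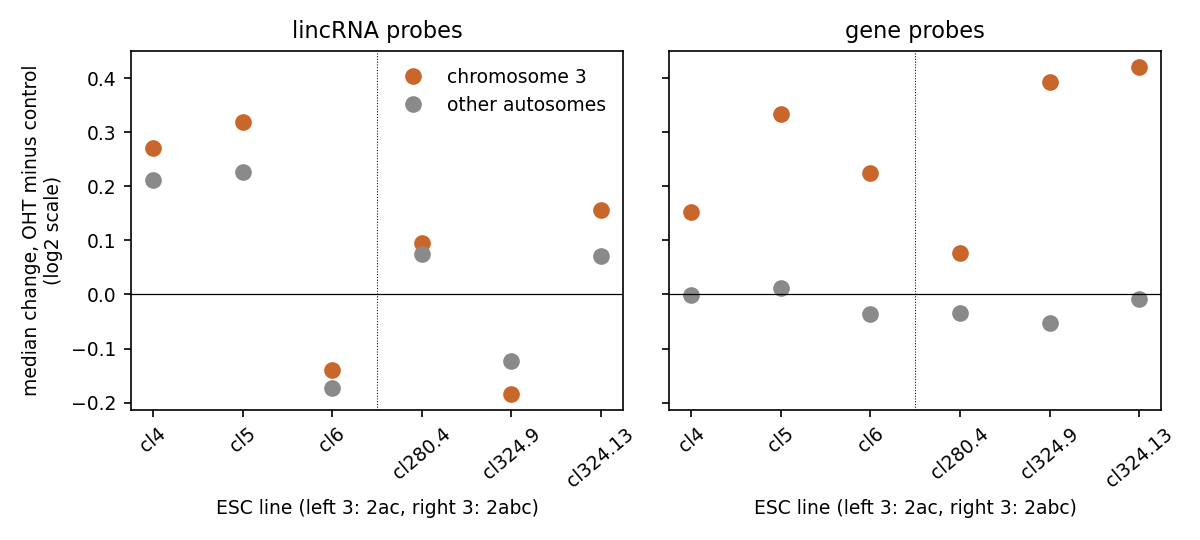
Median OHT minus control change (log2 scale, vertical axis) in each of the 6 ESC lines (horizontal axis), for lincRNA probes on the left and gene probes on the right, each point 1 line. Orange points are chromosome 3 and grey points the other autosomes: for lincRNA the points of a line lie within 0.09 of each other, while for genes chromosome 3 is higher by 0.11 to 0.45 in all 6 lines.

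**Figure D2:**
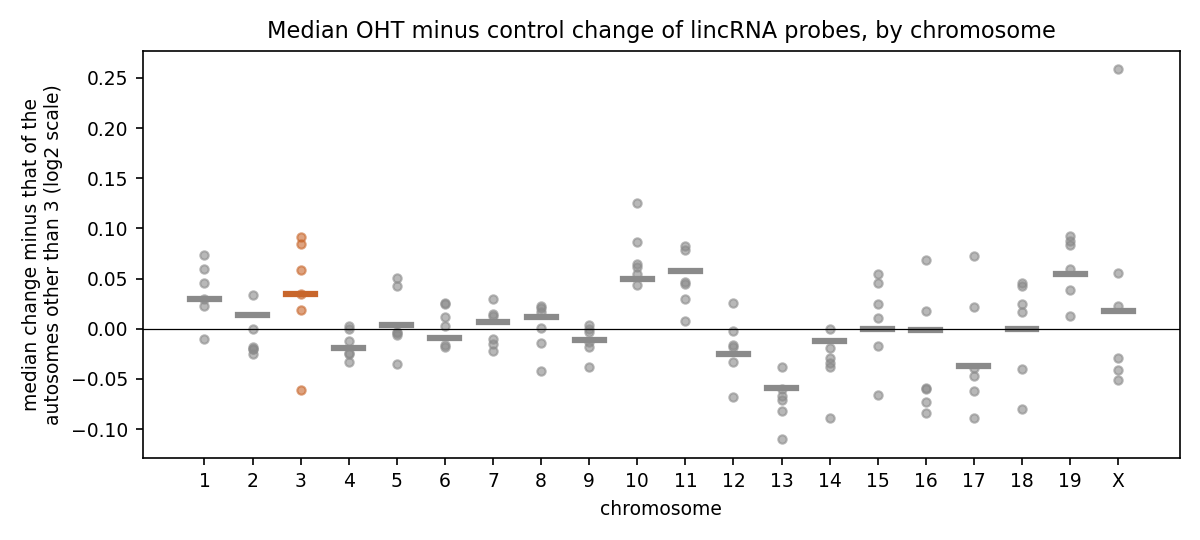
Median change of the lincRNA probes of each chromosome minus the median of lincRNA probes of the autosomes other than 3 (log2 scale). Points are the 6 lines and bars the median of the mean change over the 6 lines, which is 0.04 for chromosome 3 (orange), from -0.06 for chromosome 13 to 0.06 for chromosome 11.

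Gene probes of chromosome 3 measured on all arrays (798 probes) were higher than those of the other autosomes by 0.15, 0.32, 0.26, 0.11, 0.45 and 0.43 in the 6 lines in the order above, with 0.28 for the mean change. The 22 protein-coding landmark genes listed for chromosome 3 show the same displacement at single genes. Of the 21 tested, 12 rose and 0 fell over the 6 lines, with a median change of 0.32, against 28% of all 30670 probes called in either direction, 13.8% higher and 14.3% lower (limma, Benjamini-Hochberg adjusted p under 0.05). The gene with the largest change was Lef1, a transcription factor of Wnt signalling (1.14, SE 0.32, adjusted p = 0.0452), followed by the splicing regulator Mbnl1 (0.94, SE 0.08, adjusted p = 0.00166), the RNA-editing enzyme gene Adar (0.67, SE 0.11, adjusted p = 0.00962) and the neural progenitor filament gene Nes (0.64, SE 0.10, adjusted p = 0.00730). The smallest changes were those of Lmna at -0.01 and Pdgfc at 0.01. The lincRNA probes were dimmer than the gene probes, so both classes were set side by side in bands of equal level. At levels of -2 or less the lincRNA probes of chromosome 3 exceeded those of other autosomes by 0.02 (68 probes) and the gene probes by 0.14 (97 probes). Between -2 and -1 the differences were 0.05 (49 probes) and 0.41 (93 probes), and between -1 and 0 they were 0.04 (26 probes) and 0.34 (96 probes). Between 0 and 1 they were 0.08 (18 probes) and 0.24 (98 probes). Above 1 the 19 lincRNA probes were lower than their class by 0.18 (-0.18) and the 414 gene probes higher by 0.30. In each band the lincRNA difference was the smaller one. Both top bands of lincRNA hold fewer than 20 probes, several of them from the same region. The classes also differed on chromosome X in cl6. There the gene probes exceeded those of the autosomes other than 3 by 0.75 and the lincRNA probes by 0.26. Whether the lincRNA probes carry a damped form of the gene displacement was not tested.

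**Figure D3:**
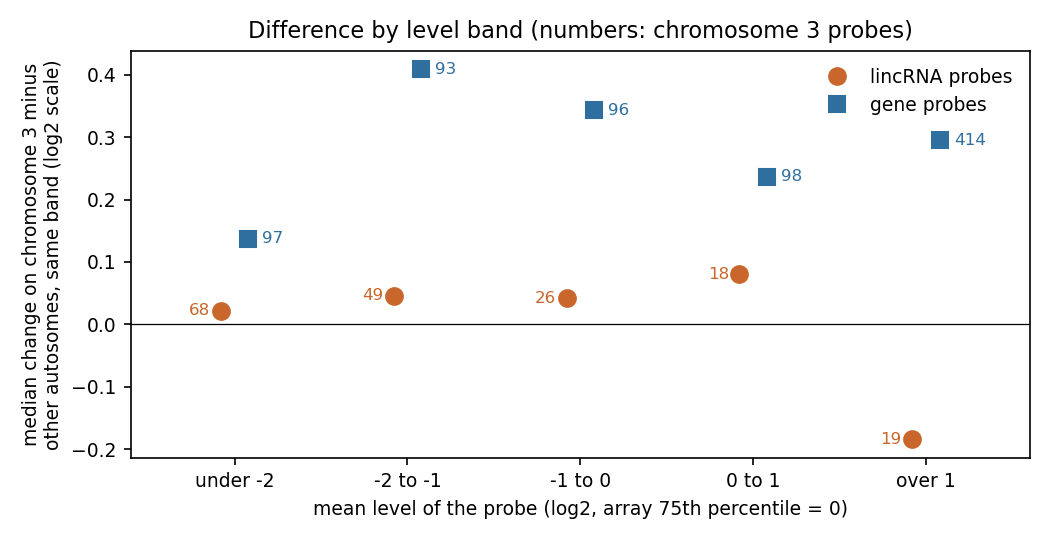
Median change on chromosome 3 minus that of the other autosomes (log2 scale, mean over the 6 lines) for probes in 5 bands of mean level, with lincRNA probes as orange circles and gene probes as blue squares. The number beside each point is the number of chromosome 3 probes, and the lincRNA points lie between -0.18 and 0.08, below the gene point of the same band (0.14 to 0.41).

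Of the 180 probes 119 (66.1%) had a mean change above 0, against 61.5% of lincRNA probes on other autosomes and 80.6% of chromosome 3 gene probes. The change was above 0 in all 6 lines for 22 (12.2%), against 10.8% and 42.6% in the same comparison sets. It was below 0 in all 6 lines for 6 (3.33%), against 7.99% of lincRNA probes elsewhere. A mean change of 1 or more in size was seen in 8 probes (4.44%), against 2.33% of lincRNA probes elsewhere. At least 4 of the 8 lay in 1 region, chr3:87757295-87774970_F, so these shares count probes and not separate loci. The 10th and 90th percentiles of the members' mean change were -0.23 and 0.56, against -0.26 and 0.39 for lincRNA probes on other autosomes.

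The region medians were close to 0 along the whole chromosome. In consecutive bins of 20 Mb from the start of the chromosome, the median region change relative to lincRNA probes of other autosomes was -0.01, 0.06, -0.05, 0.05, -0.00, 0.05, 0.05 and -0.04. The bins held 8, 28, 14, 8, 30, 8, 7 and 4 measured regions. The largest median, in the bin from 20 to 40 Mb, was 0.06, and the line values in that bin ran from -0.02 in cl6 to 0.25 in cl324.13. That bin also held 17 of the called probes described next, in 10 regions.

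**Figure D4:**
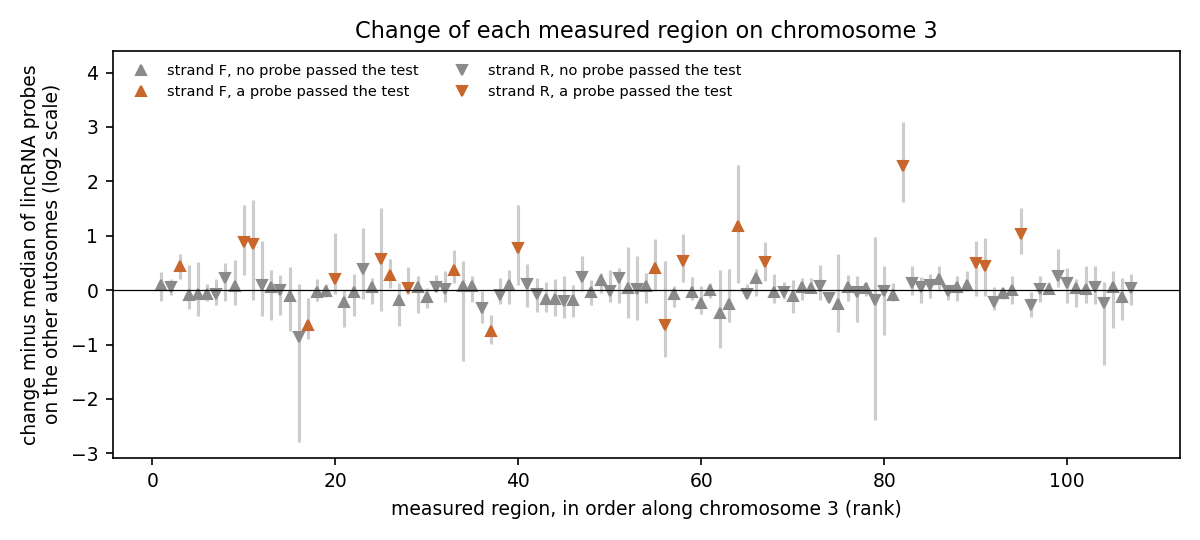
Change of each of the 107 measured regions (median of its probes, mean over the 6 lines, relative to the median of lincRNA probes on the other autosomes, log2 scale) in their order along chromosome 3. Upward triangles are strand F, downward triangles strand R, orange marks regions with a probe that passed the test, and grey lines span the lowest to the highest of the 6 lines; most regions lie near 0 and the called ones are scattered along the order.

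Over the 6 lines 53 of 289 tested lincRNA probes of chromosome 3 were called, 18.3%, with 39 higher (13.5%) and 14 lower (4.84%). Of all probes 28% were called, 13.8% higher and 14.3% lower, and of lincRNA probes on other autosomes 17.5%, with 10.04% higher and 7.49% lower. The calls lay in 31 regions of 28 loci, 25 regions higher and 6 lower. Of the 53 probes, 40 had the same sign in all 6 lines and 37 were above background on all arrays. In 2ac alone 11 of 289 were called, 6 higher and 5 lower (3.81%), against 11.1% of all probes, 5.2% higher and 5.89% lower. With each array centred on its median instead, 3 of 8 calls in 2ac were higher (37.5%). Of the calls over all probes 37.7% were then higher, and of those on lincRNA probes of other autosomes 47.5%. In that setting 2.77% of members and 7.93% of all probes were called. In 2abc alone 34 were called, 22 higher and 12 lower (11.8%), against 17.1% of all probes, 8.32% higher and 8.82% lower. The 2 genotypes share no samples, but the fit gave them a shared estimate of the spread, so their lists are not independent. In both lists 7 probes were called, 63.6% of the 2ac list and 20.6% of the 2abc list, each with the same sign. The overlap over all probes is not given here. These counts changed when single lines were left out. Over the 6 lines 21 probes were called without cl5, 22 without cl324.13 and 26 without cl324.9. In all 6 fits that left out 1 line 17 of the 53 were called. In 2ac 0 were called without cl4 or without cl5, and 22 without cl280.4. In 2abc 0 were called without cl324.9, 2 without cl324.13, 15 without cl4 and 18 without cl5. Calls over all probes in these fits are not given here. A loss particular to the members therefore cannot be told from a general loss with fewer samples. The 7 probes called in both genotypes came from 4 regions, chr3:40439525-40509975_F, chr3:30754871-30776438_F, chr3:113296823-113298691_R and chr3:95502970-95503399_R. The probe of chr3:30754871-30776438_F was above background on 11 arrays and so passed the filter through only some of the groups.

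The region with the largest rise was chr3:95502970-95503399_R, a short region of 430 bp. Its probe A_30_P01018721 had control levels of -2.33, -2.94 and -2.91 in cl4, cl5 and cl6 and -2.31, -2.74 and -2.41 in cl280.4, cl324.9 and cl324.13. After OHT the levels were -0.27, -0.78 and -0.60 in 2ac and -0.62, -0.08 and 0.75 in 2abc. The 6 OHT samples all lay above the 6 control samples, with no overlap. The mean change was 2.34 (SE 0.18, limma adjusted p = 0.00138), a 5.07-fold higher signal, and single lines ran from 1.70 in cl280.4 to 3.16 in cl324.13. The other probes of the region did not show this change. One was above background on 9 arrays and changed by 0.31 (SE 0.24, adjusted p = 0.375), and the other on 0 arrays. The rise therefore rests on 1 probe.

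Region chr3:87757295-87774970_F (17676 bp) had 5 measured probes that disagreed. The probes A_30_P01018307, A_30_P01018420, A_30_P01020627 and A_30_P01033229, 4 of the 5, rose by 1.21 to 1.34 over the 6 lines (adjusted p of 0.0201 to 0.0231). The remaining probe, A_30_P01026280, was the brightest at a mean level of 7.34 and changed by 0.02 (SE 0.06, adjusted p = 0.819). The median level of the 5 probes was 0.11, 0.19 and -0.22 in the 2ac controls and 1.21, 1.11 and 0.63 after OHT. In 2abc it was 0.78, -0.16 and -0.28 in control and 0.998, 2.02 and 1.84 after OHT. OHT samples of each genotype lay above their controls, but over all lines the groups overlapped, because the cl280.4 control was above the cl6 OHT sample. Line cl280.4 changed least at 0.20 and cl324.9 most at 2.18. The 4 calls were lost without cl4, cl5, cl324.9 or cl324.13 (adjusted p of 0.0627 to 0.0744), and without cl6 1 of them was made.

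Region chr3:113296823-113298691_R (1869 bp) rose by 1.08 (SE 0.12, adjusted p = 0.00345), a 2.12-fold higher signal at its 1 measured probe. Levels were -2.84, -3.07 and -2.73 in the 2ac controls and -1.97, -1.53 and -1.73 after OHT. In 2abc they were -3.32, -3.46 and -3.28 in control and -2.56, -2.06 and -2.36 after OHT. No OHT sample fell within the range of the controls.

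All 5 probes of chr3:21964899-21974524_R (9626 bp) rose, by 0.84 to 1.05 with adjusted p of 0.00810 to 0.0138. The median level was -2.05, -2.06 and -1.76 in the 2ac controls and -1.43, -1.21 and -1.08 after OHT. The 2abc values were -2.36, -1.99 and -2.07 in control and -1.83, -0.56 and -0.37 after OHT. OHT and control were separate within each genotype and overlapped across them, through cl280.4. Without cl5 4 of the 5 probes were called. The 1 measured probe on the opposite strand at the same coordinates had a median change of 0.13. Region chr3:21973306-21974266_R, which lies inside the first on the same strand, rose by 0.91 (SE 0.20, adjusted p = 0.0229), with a change from 0.03 in cl4 to 1.63 in cl324.13, so both describe 1 locus. Its call was lost without cl5, cl6, cl324.9 or cl324.13 (adjusted p of 0.0575 to 0.0762).

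The other 4 calls among the largest rises were smaller and each rested on 1 measured probe. They were 0.59 (SE 0.10, adjusted p = 0.0110) for chr3:78999865-79091185_R, where the groups did not overlap, and 0.58 (SE 0.14, adjusted p = 0.0262) for chr3:88009045-88036270_R, where they did. The gain was 0.49 (SE 0.09, adjusted p = 0.0131) for chr3:9635102-9661327_F, whose levels were 1.02 to 1.44 in the controls and 1.56 to 1.90 after OHT. For chr3:68867193-68876128_F it was 0.46 (SE 0.13, adjusted p = 0.0398). Of these calls, that of chr3:68867193-68876128_F was lost without any 1 line other than cl280.4 (adjusted p of 0.0744 to 0.125). The call of chr3:88009045-88036270_R was lost without cl4, cl5, cl280.4 or cl324.13 (adjusted p of 0.0626 to 0.0861), and that of chr3:9635102-9661327_F without cl5 (adjusted p = 0.0534). Region chr3:35782698-35789748_R had the same sign in all 6 lines and a median change of 0.45, but neither of its measured probes passed the test (adjusted p of 0.0851 and 0.478). In 6 of the 10 regions with the largest rises line cl280.4 changed least, and in 8 a cl324 line changed most. These regions were picked by the same changes, and shares for other probes are not given here. Among them, chr3:21964899-21974524_R and chr3:21973306-21974266_R describe 1 locus. In the chromosome 3 gene probes the difference from other autosomes was smallest in cl280.4 and largest in the cl324 lines. Over all measured members it was lowest in cl324.9 (-0.06) and highest in cl5 (0.09). A link between these patterns was not tested.

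Only 2 measured regions were lower after OHT in all 6 lines by their median. Region chr3:40439525-40509975_F (70451 bp) was the more even of them. Its median level over 4 probes was 1.504, 1.55 and 1.70 in the 2ac controls and 0.81, 0.82 and 1.08 after OHT. In 2abc it was 1.30, 1.48 and 1.63 in control and 0.69, 0.91 and 0.89 after OHT. All OHT samples lay below all controls. The region changes were -0.78, -0.74, -0.62, -0.65, -0.63 and -0.60 in the lines, with an SD of 0.07, and the signal was 61.4% of control. All 4 probes fell over the 6 lines (-0.74 to -0.55, adjusted p of 0.00181 to 0.00280), and in 2ac (adjusted p of 0.00850 to 0.0163) and 2abc (adjusted p of 0.0101 to 0.0138) taken separately. Over the 6 lines all 4 were called whichever line was left out. The 3 measured probes on the opposite strand at these coordinates had a median change of -0.03, with 3 lines above 0 and 3 below.

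Region chr3:30754871-30776438_F (21568 bp) fell by 0.59 at its 2 probes measured on all arrays (-0.60 and -0.58, adjusted p of 0.0177 and 0.0225), to 66.4% of control. Its control levels were -1.25, -1.13 and -0.82 in 2ac and -1.11, -1.53 and -1.16 in 2abc, and the levels after OHT -1.58, -1.60 and -1.86 and -1.94, -1.79 and -1.77. The highest OHT sample lay below the lowest control. The remaining probe, above background on 11 arrays, fell by 0.71 (SE 0.09, adjusted p = 0.00427). It passed the filter through only some of the 4 groups, so its adjusted p is a description only. Without cl324.13 neither of the 2 was called (adjusted p of 0.0648 and 0.0700), and without cl5 1 of them was.

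**Figure D5:**
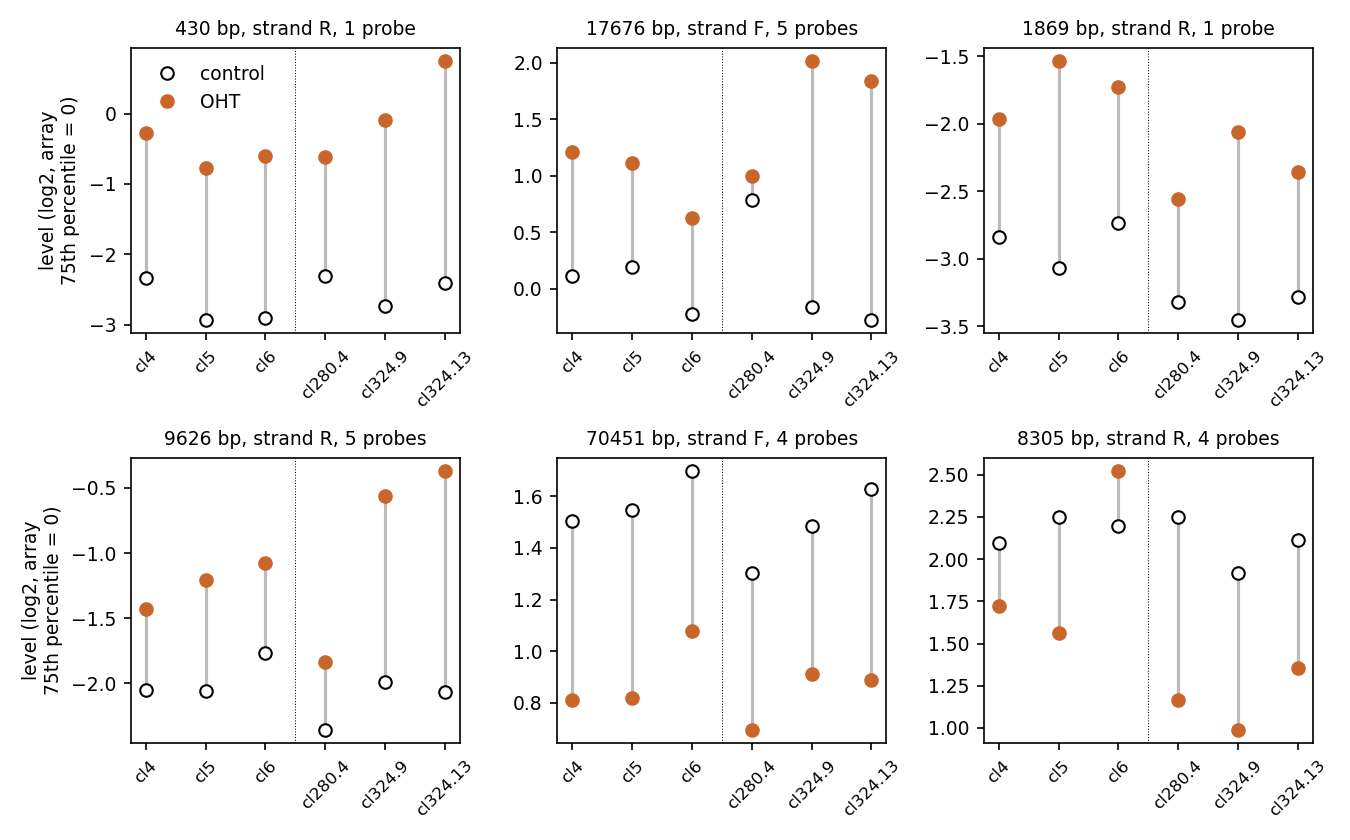
Level (log2, with each array's 75th percentile at 0) of 6 regions in the control (open) and OHT (orange) sample of each line, joined by a line, with 2ac left and 2abc right of the dotted line and the median taken where a region has several measured probes. From left to right, the top row shows chr3:95502970-95503399_R, chr3:87757295-87774970_F and chr3:113296823-113298691_R, and the bottom row chr3:21964899-21974524_R, chr3:40439525-40509975_F and chr3:75451370-75459674_R: the first 4 are higher and the fifth lower in all 6 lines, and the last is lower in 5 and higher in cl6.

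The brightest regions by median level behaved differently from one another. Region chr3:96215885-96218756_R stayed between 2.40 and 3.00 in all 12 samples, with a median change of 0.03. Region chr3:87575891-87576343_F ranged from 2.01 to 3.20 and changed by -0.20 (SE 0.17, adjusted p = 0.440), with lines from -0.75 to 0.60. Region chr3:75451370-75459674_R had a level of 2.09, 2.25 and 2.20 in the 2ac controls and 1.72, 1.56 and 2.52 after OHT. Its 2abc levels were 2.25, 1.92 and 2.11 in control and 1.17, 0.99 and 1.36 after OHT. It was lower in 5 lines and higher in cl6, where the change was 0.36, and its 4 probes agreed in each line. All 4 fell over the 6 lines (adjusted p of 0.0225 to 0.0419) and in 2abc (adjusted p of 0.0258 to 0.0473), and 0 of them in 2ac (adjusted p of 0.440 to 0.511). The calls over the 6 lines were lost without any 1 line other than cl6 (adjusted p of 0.0558 to 0.119). The median change was -0.25 in 2ac and -0.93 in 2abc, and the limma interaction term did not call this difference (smallest adjusted p = 0.452 of the 4). That term called 0 of all 30670 probes, so this does not show that the genotypes responded alike.

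The regions nearest the members' median changed by 0.08 to 0.09. They were chr3:62727150-62758225_F, chr3:151746091-151753763_R and chr3:126989696-127112471_F, and 0 of their measured probes passed the test. In chr3:151746091-151753763_R the 2ac lines changed by 0.39, 0.53 and 0.01 and the 2abc lines by -0.06, -0.13 and -0.20, and the interaction term gave an adjusted p of 0.442. Of the other regions with several measured probes, chr3:88323145-88335770_F (5 probes) had a median change of 0.02 and chr3:19179899-19216399_F (4 probes) of -0.02. In chr3:34643323-34682773_R the 4 probes ran from -0.25 to 0.61, and 2 of them rose over the 6 lines. Both, A_30_P01023505 (0.84, SE 0.18, adjusted p = 0.0379) and A_30_P01024976 (0.57, SE 0.13, adjusted p = 0.0439), also rose in 2ac. Over the 6 lines both were lost without cl324.9 or without cl324.13 (adjusted p of 0.0608 to 0.117). Their changes in 2abc were 0.38 (adjusted p = 0.199) and 0.13 (adjusted p = 0.543).

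Probes of 1 region mostly moved together. In the 44 regions with 2 or more measured probes the SD within a region was 0.19, against 0.40 over all 180 probes, and the range between its lowest and highest probe had a median of 0.16. This range was under 0.25 in 30 regions and above 1 only in chr3:87757295-87774970_F. In 27 regions all probes had the same sign and in 17 they had both.

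Opposite strands were both measured at 16 pairs of coordinates. The changes had the same sign in 11 pairs and opposite signs in 5, and differed by a median of 0.23. The difference was above 0.5 in 5 pairs. At chr3:21964899-21974524 and chr3:40439525-40509975, described above, 1 strand was called and the other was not. At chr3:41143423-41359623 strand R changed by 0.83 and strand F by 0.14. At chr3:35782698-35789932 the values were 0.63 on R and 0.12 on F. At chr3:30099759-30133959 they were -0.81 on R and -0.05 on F, with R ranging from -2.72 in cl324.13 to 0.35 in cl5. The difference between strands was not tested.

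Some called probes were near background, 16 of the 53 missing it on at least 1 array. The largest of these changes was in chr3:60292527-60292880_R (354 bp). Probe A_30_P01031191, above background on 9 arrays, changed by 2.06 (SE 0.26, adjusted p = 0.00441), and probe A_30_P01028265, above it on 12, by 1.55 (SE 0.25, adjusted p = 0.00873). The third probe of the region, A_30_P01020926, was above background on all arrays and changed by 0.27 (SE 0.14, adjusted p = 0.210). For A_30_P01031191 the 2ac levels were -3.63, -4.19 and -3.35 in control and -2.73, -2.44 and -2.92 after OHT. In 2abc the probe was not well above background in any control, with measured levels of -7.37, -6.08 and -4.97, and was above it after OHT at -3.55, -2.79 and -2.84. Measured against the lowest signals well above background on those arrays, it was at least 2.65-fold higher in 2abc after OHT (adjusted p = 0.00924). Without cl324.9 this call in 2abc was lost (adjusted p = 0.0661). By the same bound a probe of chr3:84609788-84618062_R was at least 1.69-fold higher in 2abc (adjusted p = 0.0200), a call lost without cl324.9 or cl324.13 (adjusted p of 0.113 and 0.124). A probe of chr3:41143423-41359623_R was at least 1.54-fold higher in 2abc and one of chr3:26975624-26988699_R at least 1.89-fold lower in 2ac, with adjusted p of 0.0692 and 0.134 that miss the threshold. Each of these 4 probes entered the fit only through a group in which it was high, so its difference is given as a description and its adjusted p supports nothing. The region without a strand, chr3:34856791-34869544, had 1 tested probe, A_30_P01017966, above background on 9 arrays, which rose by 0.86 over the 6 lines (SE 0.12, adjusted p = 0.00512) and by 1.13 in 2ac (adjusted p = 0.0165), the latter not without cl4 or cl5 (adjusted p of 0.0905 and 0.102). Its change in 2abc was 0.59 (adjusted p = 0.0581). Each of the 16 called probes that missed background somewhere passed the filter through only some of the 4 groups. Their adjusted p are therefore given as a description and support nothing further.

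The genotypes were compared next. The 2abc effect minus the 2ac effect is a difference of the same per-line changes from which the chromosome was chosen, while the comparison of untreated cultures was not used in that choice. This difference of effects was called by limma for 0 of 289 lincRNA probes of chromosome 3 (0% of all probes). An unadjusted p under 0.05 was found for 14 of them (4.84%), against 10.8% of all probes and 7.48% of lincRNA probes on other autosomes. The probe with the smallest p was A_30_P01031191 of chr3:60292527-60292880_R, where the 2abc change exceeded the 2ac change by 2.05 (SE 0.52, adjusted p = 0.367). None of the 2abc controls of this probe was well above background, so the size of this excess cannot be measured. An adjusted p above the threshold does not show that the genotypes responded alike.

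Untreated 2abc minus untreated 2ac was likewise called by limma for 0 of 289 members (0% of all probes). Of them 136 had an unadjusted p under 0.05, against 7825 of all 30670 probes and 2264 of 5658 lincRNA probes on other autosomes. The median difference was -0.37, lower in 2abc, against -0.30 for lincRNA probes of other autosomes and -0.05 for all probes. With each array centred on its median, the median over all probes moved to 0.25 and that of the members to -0.07. The members' median minus that of all probes was -0.32 under both scalings. Each of these moves all probes of an array by the same amount, so they cannot differ in this value. After quantile normalisation, which can change it, it was -0.18. All 2abc arrays were on the slide that also held cl6, while cl4 and cl5 were on other slides, so genotype and slide are largely confounded. With the slide as a block 0 members were called and the median was -0.29. There 64 members had an unadjusted p under 0.05, against 3498 of all 30669 probes and 1050 of 5657 lincRNA probes on other autosomes. When probes had to be above background on all arrays, 3 of 180 members were called (1.67%), all lower in untreated 2abc, against 1.05% of all probes and 2.17% of lincRNA probes on other autosomes. They were A_30_P01021016 of chr3:19179899-19216399_R (-0.89, SE 0.10, limma adjusted p = 0.0413), A_30_P01021319 of chr3:93582250-93592950_R (-0.81, SE 0.10, adjusted p = 0.0415) and A_30_P01018068 of chr3:88009045-88036270_F (-0.63, SE 0.11, adjusted p = 0.0498). With the wider set of probes their adjusted p were 0.0625, 0.0625 and 0.0668, and these 3 were named after their values were seen. For A_30_P01021016 the untreated levels were -2.68, -2.78 and -2.73 in 2ac and -3.71, -3.43 and -3.72 in 2abc, without overlap. As a whole, the members' control levels deviated from those of other lincRNA probes by -0.08 to 0.07 in the 6 lines.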

How the data were processed

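Total RNA was labelled with Cy3 and hybridised to 13 arrays. Per the file headers, the deposited intensity of each spot comes from Agilent Feature Extraction, version 11.0.1.1, and positions are in mm9. Flagged and control spots were left out, spots of a probe averaged, and log2 of the processed signal scaled to each array's 75th percentile. The second hybridisation was used for the control of cl4. The 2 OHT arrays of that line (r = 0.983 over measured members) were averaged and counted as 1 sample. They were on different slides, of which 1 also held the cl4 control, and differed by a median of 0.16 in size over measured members.

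OHT effects were fitted by limma 3.58.1 (R 4.3.3) to all 12 samples with the line as a block (4 residual degrees of freedom), and untreated cultures on the 6 controls. P-values were adjusted over 30670 probes, those well above background throughout 1 group or more. The pairing comes from the labels. As a check, deviations of a line's samples from the group means correlated at 0.16 (cl4), 0.43 (cl5), 0.49 (cl6), 0.03 (cl280.4), -0.04 (cl324.9) and -0.02 (cl324.13). Medians of changes used probes well above background on all arrays ("measured"), and a region's value is the median over these. The procedure was tested on simulated data.

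Named were the 10 largest rises and 5 largest falls (2 existed) among measured regions with the same sign in all lines, the 3 brightest, the 3 nearest the median, those with most probes, those at the detection threshold, and probes detected in only control or OHT. Members and lists were chosen with earlier results of these data known.

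Alternatives changed the scaling, background correction, filter, probe choice, comparison class, hybridisation, block and lines. Normexp used the median spot intensity in place of the mean. The authors' deposited table gives log2 values, made with limma per the submitters' processing notes. It holds 93 members, and 0 columns lay outside the 13 arrays. Genes were named through RefSeq (assembly GRCm38.p6). Probe sequences and mm9 gene models were not used here.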

Additional observations from a re-analysis of the deposited data

How the results depend on the processing

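The difference between chromosome 3 and other autosomes in the median lincRNA change stayed small. Against probes that are no lincRNA probes it was 0.11 over the 6 lines and 0.11 in 2ac, and in the other alternatives with all lines it was 0.01 to 0.05 over the 6 lines, including members with a mean level above -1 (0.04), an alternative added after seeing the data. Leaving out 1 line gave 0.01 to 0.06 over the 6 lines, 0.00023 to 0.076 in 2ac (the highest without cl6) and -0.02 to 0.06 in 2abc. The 53 calls over the 6 lines became 28 with no filter and 23 with 1 probe per region, which tests fewer probes. In 2ac the 11 calls became 17 with normexp, 3 with no filter and 6 with 1 probe per region, and in 2abc the 34 calls became 5 with no filter, 14 with 1 probe per region and 7 with the samples of that genotype only. Without the replicate block there were 46, 14 and 39 calls. Shares over all probes are not given here for these settings. With the authors' deposited values, 36 of 93 members were called over the 6 lines (38.7%), against 40.4% of all probes and 29.1% of lincRNA probes of other autosomes there.

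Leaving out 1 line gave 21 to 57 calls over the 6 lines (21 without cl5, 22 without cl324.13, 26 without cl324.9). In 2ac it gave 0 to 22 (0 without cl4, 0 without cl5, 22 without cl280.4), and in 2abc 0 to 41 (0 without cl324.9, 2 without cl324.13, 15 without cl4, 18 without cl5). Where a genotype is left with 2 lines, the spread is shared with the other. Calls over all probes in these fits are not given here, and each fit has fewer samples. The brightest probes of chr3:95502970-95503399_R, chr3:113296823-113298691_R, chr3:21964899-21974524_R, chr3:78999865-79091185_R and chr3:40439525-40509975_F were called in all 6 of these fits. The interaction had 0 calls in every alternative, and untreated genotypes 3 when probes had to be above background on all arrays and 0 otherwise. Most members are dim, and a change below background cannot be measured.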
